A study of Mus musculus with 6 samples.

Results

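The adhesion G protein-coupled receptors (adhesion GPCRs) were examined in tumor-associated macrophages (TAMs) of a mouse melanoma. The 8 genes described were *Adgre1*, *Adgre4*, *Adgre5*, *Adgrg1*, *Adgrg3*, *Adgrl1*, *Adgrl2* and *Adgrl4*, taken by name from the 23424 genes listed for each library. *Adgre1* encodes F4/80, the surface protein on which the cells were sorted, so its difference between the subsets is a check of the sort and was counted apart from the other 7. F4/80high and F4/80low TAMs came from tumors of YUMM1.7, a mouse melanoma cell line, grown in the skin of untreated wild-type (WT) C57Bl/6J female mice that were 8 weeks old at tumor induction. On day 21, live CD45+ Lin- CD11b+ cells were sorted by their F4/80 level, with 10 tumors pooled for each of 3 independent experiments, and poly-A RNA was sequenced. Each subset thus had 3 libraries, 1 per experiment, and the libraries of one replicate number form a pair. The mice of a pool are not separated, so the spread between libraries is the spread between experiments.

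Adhesion GPCRs carry a long extracellular region in front of the seven-transmembrane domain of other GPCRs. In most of them a domain next to the membrane cuts the protein in a self-catalysed step, and the stretch exposed by that cut can act as a tethered agonist when the extracellular part is pulled off by a ligand on another cell or in the matrix. The ADGRE group is found mainly on myeloid cells, the ADGRG group includes receptors of lymphocytes and granulocytes, and the ADGRL group holds the latrophilins and an endothelial receptor.

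Library totals ran from 16045281 to 43604373 counts. The study draws replicates 1 and 2 as batch 1 and replicate 3 as batch 2, and the batch 2 libraries were the smallest, with 17.1% and 16.1% of counts on *Lars2*, *Gm23935* and *Gm15564* against 0.378% to 0.609% in batch 1. Macrophage genes were present in every library, with a level summed over 10 genes such as *Lyz2* and *Csf1r* of 24321 CPM (counts scaled to the library total) in F4/80high replicate 2 and 7451 to 11577 CPM in the other 5 libraries. F4/80high replicate 2 stood apart mostly by *Lyz2*, at 16127 CPM, and the sum was 2.10 times that of F4/80low in pair 2, against 0.885 and 0.860 times in pairs 1 and 3. Genes of other cells were also present, and their values stand beside the results they move with. The 3 listed melanoma genes summed to 1.19 to 3.08 CPM, while *Tyr*, *Tyrp1*, *Dct* and *Slc45a2* were not analysed here. CPM were scaled to the counts of each library in 14645 protein-coding genes, normalized by TMM. The quasi-likelihood test of edgeR, with batch as a term, compared the subsets over these genes. A gene was called when its p, adjusted by Benjamini-Hochberg, was under 0.05 and its log2 fold change was beyond 1 in either direction. The study itself used DESeq2, with batch correction and the same thresholds, and calls by DESeq2 are given beside those of edgeR. Fold changes are F4/80high minus F4/80low.

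Most of the 8 receptors had a lower fitted level in F4/80high TAMs, led by *Adgre4* and *Adgre5*, while *Adgre1* and *Adgrg1* had positive differences. Of the 7 receptors other than *Adgre1*, 1 had a positive and 6 a negative fold change, with a median log2 fold change of -0.64 beside 0.01 over all genes tested. None of the 8 was called by edgeR with batch, and neither was any other gene (percent called 0, with 1113 genes at an unadjusted p under 0.05 and 150 called by DESeq2 with batch). At that unadjusted level 3 of the 7 were lower (*Adgre4*, *Adgre5* and *Adgrg3*), where 4.32% of all genes were, and 0 were higher, where 3.28% were. By replicate pair, 4 of the 7 (those 3 and *Adgrl4*) were lower in 3 of 3 pairs, as 15.9% of all genes were, and 0 were higher in 3 of 3, as 16.0% were. For *Adgrl4* this rests on 0 and 1 counts in pair 2. In pair 3 it had 4 counts in both libraries, so only the library scaling set the sign. *Adgre4* was the 1 receptor that passed in other fits. With the replicate pairs as a block, edgeR called it (percent called lower 0.287), and DESeq2 called it with batch (percent called lower 0.710) and with the block (percent called lower 1.53). In bulk samples, fewer cells of a type and less RNA per cell cannot be told apart.

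**Figure D1:**
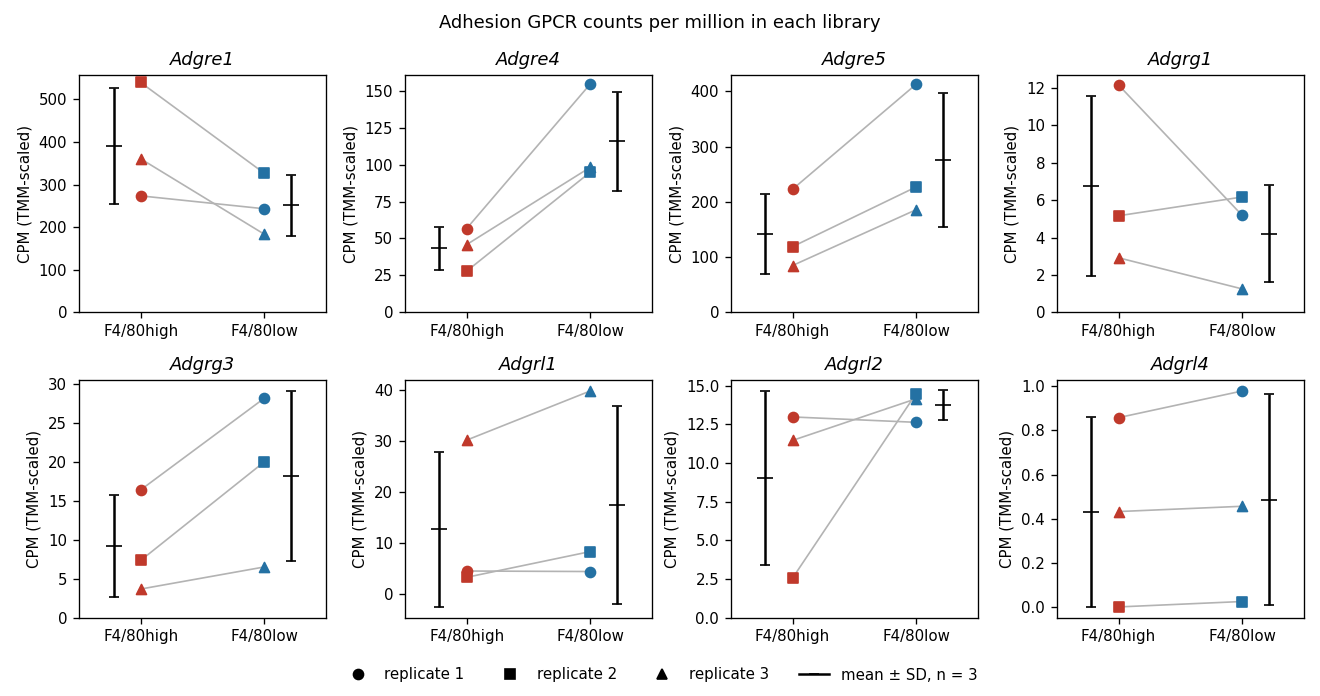
TMM-scaled CPM of the 8 receptors in the F4/80high (red) and F4/80low (blue) libraries, each panel with its own linear axis. Symbols mark the replicate, grey lines join the libraries of one experiment, and black bars are the mean ± SD (n = 3). *Adgre4* is the one receptor whose highest F4/80high library, at 56.7 CPM, lies below its lowest F4/80low library, at 94.8 CPM.

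*Adgre1* occupies chromosome 17, positions 57358691 to 57483527 (GRCm38). Across F4/80high replicates 1, 2 and 3 it measured 273, 539 and 360 CPM, against 243, 327 and 183 CPM across the F4/80low libraries. The sort marker's transcript was thus higher in F4/80high in 3 of 3 pairs, yet the subsets overlapped, because replicate 1 of F4/80high was lower than replicate 2 of F4/80low. The log2 difference was 0.17, 0.72 and 0.97 in pairs 1, 2 and 3, and the fit gave 0.67 with an SE of 0.30 (edgeR adjusted p = 0.664). Leaving out each library in turn gave 0.36 to 0.94, with the lowest value without F4/80high replicate 2. In pair 1 the difference in transcript was smaller than the SE of the fit.

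*Adgre4*, a myeloid receptor closely related to F4/80, lies on the same chromosome from 55749984 to 55853662, 1505 kb from *Adgre1*. Its promoter is shown because it is the one receptor that any fit called. RefSeq's start for the gene on GRCm38.p6 gives a window of 300 bases that ends just after it, printed 5′ to 3′ on the coding strand. Capitals mark GAGGAA or its reverse complement TTCCTC, the core that PU.1, a transcription factor of myeloid cells, is known to bind.

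Adgre4, chr17:55749734-55750033, plus strand: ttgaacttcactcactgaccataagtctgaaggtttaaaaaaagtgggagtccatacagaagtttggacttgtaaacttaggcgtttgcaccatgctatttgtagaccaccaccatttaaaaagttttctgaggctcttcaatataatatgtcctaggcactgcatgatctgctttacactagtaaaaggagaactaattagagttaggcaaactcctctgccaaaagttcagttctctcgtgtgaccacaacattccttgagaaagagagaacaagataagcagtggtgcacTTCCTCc

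The motif occurred 1 time in this window, near its downstream end and past the gene start at position 55749984. It occurred at least once on either strand in 28.3% of 32851 promoters of the same length. The window held 2 CpG dinucleotides, against a median of 7 over all promoters (quartiles 3 and 20).

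*Adgre4* measured 56.7, 27.9 and 45.8 CPM across F4/80high replicates 1, 2 and 3. The F4/80low libraries of the same replicates measured 154, 94.8 and 98.1 CPM. All 3 F4/80low libraries lay above all 3 F4/80high libraries, a separation in this direction that 2.90% of all genes had. F4/80high had a mean of 43.5 ± 14.6 CPM and F4/80low one of 116 ± 33.5 CPM (SD, n = 3 each), a fitted level in F4/80low 2.65 times that in F4/80high. The fitted log2 difference was -1.41 (SE 0.33, edgeR adjusted p = 0.440), and the pairs gave -1.44, -1.76 and -1.10. With the block it was -1.44 (SE 0.22, edgeR adjusted p = 0.0348). DESeq2 gave adjusted p = 0.0105 with batch and 1.61e-06 with the block. Leaving out each library in turn kept it between -1.70 and -1.14, with -1.15 without F4/80high replicate 2.

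*Adgre5* encodes CD97, a receptor of leukocytes that binds CD55, and lies on chromosome 8 from 83723251 to 83741326. It measured 223, 119 and 84.8 CPM in F4/80high replicates 1 to 3, against 413, 227 and 186 CPM in the F4/80low libraries of the same numbers. Every pair was lower in F4/80high to a like degree, with log2 differences of -0.89, -0.93 and -1.13, although the subsets overlapped because replicate 1 of F4/80high lay above replicate 3 of F4/80low. The fitted log2 difference was -0.98 (SE 0.32, edgeR adjusted p = 0.524). Under the block the SE was 0.19 and the edgeR adjusted p was 0.0652. DESeq2 with the block gave an adjusted p of 5.66e-04, with a log2 fold change of -0.98 that stayed inside the limit of 1. *Ddx39*, on the opposite strand, overlaps *Adgre5* and had 17919 counts over the 6 libraries, and the use of strand in counting is not given in the sources used here, so the part of each gene in the shared stretch cannot be told apart.

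Within each library the ADGRE receptors were set against each other, which needs no scaling between libraries. Per base of transcript, *Adgre1* was 5.18, 20.8 and 8.46 times the level of *Adgre4* across F4/80high replicates 1, 2 and 3, and 1.69, 3.70 and 2.01 times across F4/80low. These ranges did not overlap, and the ratio was 3.06, 5.62 and 4.20 times larger in F4/80high in pairs 1, 2 and 3. The ratio of *Adgre1* to *Adgre5* was 1.42, 5.25 and 4.92 across F4/80high and 0.682, 1.67 and 1.14 across F4/80low, larger in F4/80high in every pair but with overlapping ranges. The cells were sorted on the product of *Adgre1*, so both ratios are bound to the sort and were not tested. They also hold the differences of the other 2 genes. In pairs 1, 2 and 3 the log2 difference was 0.17, 0.72 and 0.97 for *Adgre1* and -1.44, -1.76 and -1.10 for *Adgre4*. For *Adgre5* it was -0.89, -0.93 and -1.13. The ratio of *Adgre4* to *Adgre5* ran from 0.252 to 0.582 in F4/80high and from 0.403 to 0.569 in F4/80low, with no common direction over the pairs (two-sided exact permutation within the pairs, p = 0.5, where 3 pairs allow no p below 0.25).

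**Figure D2:**
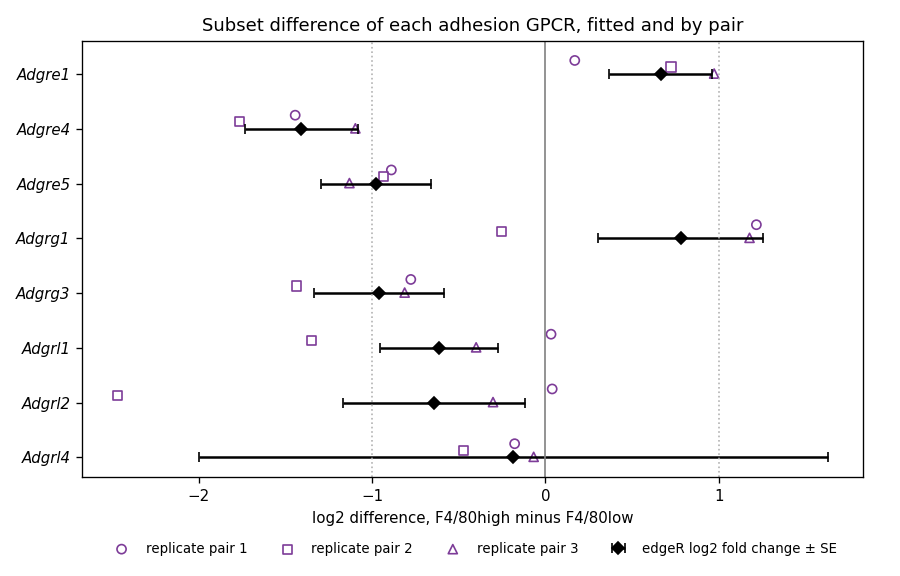
Log2 difference of each receptor, F4/80high minus F4/80low, with the edgeR fold change ± SE as black diamonds and each replicate pair (log2 CPM with a prior count of 2) as open purple symbols. Dotted lines mark the limit of 1 either way. The 3 pairs lie on one side of 0 for *Adgre1*, *Adgre4*, *Adgre5*, *Adgrg3* and *Adgrl4*, while *Adgrl2* spans -2.47 to 0.04. For *Adgrl4*, pairs 2 and 3 rest on 0 to 4 counts per library.

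*Adgrg1* and *Adgrg3* lie side by side on chromosome 8, with 3.5 kb and no protein-coding gene between them. *Adgrg1* (GPR56) is known from cytotoxic lymphocytes and from brain and muscle development, and *Adgrg3* (GPR97) from granulocytes. The promoters of these 2 close neighbours, whose differences between the subsets had opposite signs, are shown as RefSeq gives them on GRCm38.p6, with capitals as above. RefSeq gives 2 starts for *Adgrg1*.

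Adgrg1, chr8:94976859-94977158, plus strand: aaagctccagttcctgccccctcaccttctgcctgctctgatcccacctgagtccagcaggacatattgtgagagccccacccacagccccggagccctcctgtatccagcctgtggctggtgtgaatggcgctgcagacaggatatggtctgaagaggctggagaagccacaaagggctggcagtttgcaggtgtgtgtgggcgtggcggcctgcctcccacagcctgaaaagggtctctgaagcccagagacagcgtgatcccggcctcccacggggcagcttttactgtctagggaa

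Adgrg1, chr8:94984149-94984448, plus strand: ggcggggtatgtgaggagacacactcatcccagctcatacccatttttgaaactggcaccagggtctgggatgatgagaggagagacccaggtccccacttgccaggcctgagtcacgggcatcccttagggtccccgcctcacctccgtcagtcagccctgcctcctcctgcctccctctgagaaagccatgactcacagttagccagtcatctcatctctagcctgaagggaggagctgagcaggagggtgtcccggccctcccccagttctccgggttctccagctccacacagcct

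Adgrg3, chr8:95017442-95017741, plus strand: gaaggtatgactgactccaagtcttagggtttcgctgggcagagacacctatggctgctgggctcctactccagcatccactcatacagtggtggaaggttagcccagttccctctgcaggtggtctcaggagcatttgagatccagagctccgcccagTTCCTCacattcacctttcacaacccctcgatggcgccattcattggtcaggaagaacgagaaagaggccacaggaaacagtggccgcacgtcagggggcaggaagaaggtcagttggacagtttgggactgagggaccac

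The motif occurred 1 time in the *Adgrg3* window and in neither *Adgrg1* window. Their CpG content was alike, with 7 and 6 CpG in the *Adgrg1* windows and 7 in that of *Adgrg3*, each near the median of all promoters. Of the other receptors with a promoter in the RefSeq table, *Adgrl1* and *Adgrl4* held the motif 1 time and *Adgrl2* did not, and *Adgrl1* stood apart by its 28 CpG. In all, 6 of the 8 receptors had a promoter there.

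*Adgrg3* measured 16.4, 7.34 and 3.68 CPM across F4/80high replicates 1, 2 and 3, against 28.1, 20.0 and 6.50 CPM across F4/80low. It was lower in F4/80high in 3 of 3 pairs, with log2 differences of -0.78, -1.43 and -0.81. The subsets overlapped because F4/80high replicates 1 and 2 lay above F4/80low replicate 3, a library of batch 2. Fitted over the libraries, the log2 difference was -0.96 (SE 0.38, edgeR adjusted p = 0.614), and with the block -1.02 (edgeR adjusted p = 0.280).

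*Adgrg1* measured 12.2, 5.17 and 2.92 CPM across F4/80high, against 5.20, 6.17 and 1.26 CPM across F4/80low replicates 1, 2 and 3. Pairs 1 and 3 were higher in F4/80high, by 1.22 and 1.18, and pair 2 was lower, at -0.25. The replicate 3 libraries held 27 and 11 counts, so that pair rests on few reads. Fitted over the libraries, it was 0.78 (SE 0.48, edgeR adjusted p = 0.714).

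The ratio of *Adgrg1* to *Adgrg3* varied less within each subset than either gene alone, and other pairs of genes were not compared for this. Both genes were lower in batch 2 (log2 difference -1.84 and -1.79), and the part of that shared shift was not tested. The F4/80low replicate 3 ratio rests on 11 and 57 counts. Per length, *Adgrg1* was 0.468, 0.444 and 0.501 times *Adgrg3* across F4/80high and 0.117, 0.195 and 0.122 times in F4/80low replicates 1, 2 and 3. The ranges did not overlap, and the ratio was 4.02, 2.28 and 4.11 times larger in F4/80high (two-sided exact permutation within the pairs, p = 0.25, the smallest that 3 pairs allow). This and the ratio of *Adgre4* to *Adgre5* were the 2 ratios tested, and neither could pass a threshold of 0.05.

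The latrophilins *Adgrl1* and *Adgrl2*, receptors that bind teneurins and FLRT proteins on neighbouring cells, had uneven differences. *Adgrl1* measured 4.44, 3.21 and 30.2 CPM across F4/80high, against 4.34, 8.26 and 39.8 CPM across F4/80low replicates 1, 2 and 3. The replicate 3 libraries of both subsets stood far above the rest, and the subset difference was 0.03, -1.35 and -0.40 in the pairs (log2 fold change -0.61, SE 0.34, edgeR adjusted p = 0.699). *Adgrl2* measured 12.97, 2.56 and 11.5 CPM across F4/80high, against 12.6, 14.5 and 14.1 CPM across F4/80low. F4/80high replicate 2 was the one low library, and the log2 fold change of -0.64 (SE 0.53, edgeR adjusted p = 0.790) ran from -1.47 to -0.19 as libraries were left out. *Adgrl4* (ELTD1), known from endothelial cells, had 34, 0 and 4 counts in F4/80high and 39, 1 and 4 counts in F4/80low. At 0 and 1 counts both replicate 2 libraries lay under the floor of 3 counts, and the log2 fold change of -0.18 had an SE of 1.82 and turned positive, to 0.44 without F4/80high replicate 2 and to 1.98 without F4/80low replicate 1. The library with 0 counts was the deepest of the 6, and the part of depth in these counts was not tested.

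The difference between batches was larger for several receptors than that between subsets, and it was tested in the same fit after the values had been seen. Batch 2 against batch 1, *Adgrl1* was higher by 2.82 (SE 0.35, edgeR adjusted p = 2.40e-04), as were 17.9% of all genes by the same thresholds. *Adgrg1* was lower, at -1.84 (SE 0.56, edgeR adjusted p = 0.0250), and *Adgrg3* at -1.79 (SE 0.44, edgeR adjusted p = 0.00911), as were 20.2% of all genes. With either replicate 3 library left out only *Adgrl1* stayed past the thresholds, and with library size alone in place of TMM 6 of the 8 passed, 5 of them lower. *Adgre4* had the smallest batch difference among receptors with over 10 counts in every library, -0.11 (SE 0.34, edgeR adjusted p = 0.821). Batch 2 holds 1 library per subset, so its depth, its composition and its experiment cannot be told apart.

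**Figure D3:**
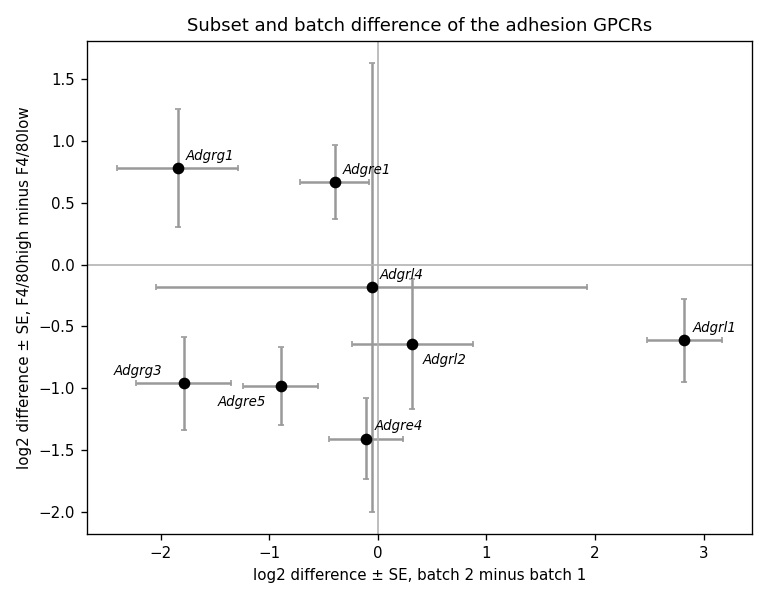
Log2 difference between the subsets (vertical, F4/80high minus F4/80low) against that between the batches (horizontal, batch 2 minus batch 1) for the 8 receptors, both with the SE of the edgeR fit. *Adgrl1* lies far to the right, at 2.82, *Adgrg1* and *Adgrg3* to the left, at -1.84 and -1.79, and *Adgre4* lowest, near no batch difference.

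Compared per length, as RPKM, *Adgre1* was the highest of the 8 receptors in F4/80high, at 121 ± 41.8 RPKM (SD, n = 3), followed by *Adgre5* at 37.8 ± 19.1 and *Adgre4* at 12.5 ± 4.17 RPKM. No 2 neighbours among these, nor *Adgre4* and the next receptor, overlapped in F4/80high. In F4/80low, *Adgre1* at 77.4 ± 22.1 RPKM and *Adgre5* at 73.2 ± 32.2 RPKM overlapped, followed by *Adgre4* at 33.2 ± 9.60 RPKM. *Adgre4* lay apart from both its neighbours in that order in F4/80low. *Adgrg3*, *Adgrg1*, *Adgrl1* and *Adgrl2* lay between 0.634 and 7.47 RPKM in both subsets, most of them overlapping with the next in order, and *Adgrl4* was last at 0.0938 and 0.106 RPKM. As with the ratios, the share of *Adgre1* is bound to the sort. Of the summed RPKM of the 25 adhesion GPCRs read here, *Adgre1* held 47.3%, 77.7% and 65.2% across F4/80high replicates 1, 2 and 3, against 29.8%, 48.5% and 35.7% across F4/80low. *Adgre4* held 9.12%, 3.73% and 7.71% across F4/80high, against 17.6%, 13.1% and 17.8% across F4/80low. The 8 receptors together held 90.1% to 98.5% in every library.

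Of 29 mouse adhesion GPCR genes looked up, 25 were read and 23 were tested. Among the 15 tested that are not among the 8 receptors, 5 had a positive and 10 a negative fold change, with a median of -0.33. In each direction 1 passed an unadjusted p under 0.05, where 3.28% of all genes were higher and 4.32% lower. *Adgrb2*, one of the brain angiogenesis inhibitors, had 115, 107 and 6 counts in F4/80high and 24, 16 and 0 counts in F4/80low replicates 1, 2 and 3. Its CPM did not overlap between the subsets, a separation in that direction that 2.30% of all genes had (log2 fold change 2.74, SE 1.00, edgeR adjusted p = 0.576). *Celsr3*, of the cadherin-bearing branch, was lower in 3 of 3 pairs (log2 fold change -1.43, SE 0.55, edgeR adjusted p = 0.608), and its relative *Celsr1* was higher in 3 of 3 (1.18, SE 0.65, edgeR adjusted p = 0.697). *Adgrg7* had 0 counts in every F4/80high library and 0, 19 and 10 in F4/80low. *Adgrg6*, *Adgra2*, *Adgra3* and *Adgrl3* were listed at 0.841 to 4.05 RPKM, with log2 fold changes between -0.59 and -0.24, each with an edgeR adjusted p above that of *Celsr3*. *Adgrl3*, the other latrophilin, shared the batch pattern of *Adgrl1*, with 38.5 and 55.9 CPM in the replicate 3 libraries and 1.17 to 5.12 CPM in the other 4.

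**Figure D4:**
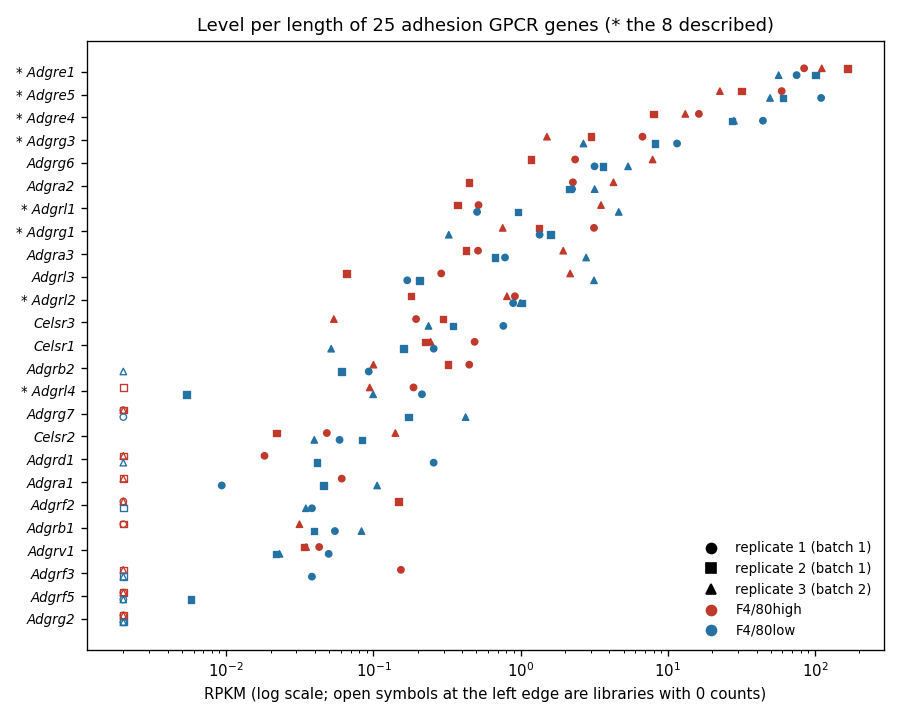
Level per length (RPKM, log axis) of 25 adhesion GPCR genes in each library, ordered by mean, with red for F4/80high, blue for F4/80low, and the symbol for the replicate. Open symbols at the left edge are libraries with 0 counts, and an asterisk marks the 8 receptors. *Adgre1*, *Adgre5* and *Adgre4* lie at the top, and from *Adgrg6* down the batch 2 libraries of several genes stand to the right.

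Known ligands and partners of these receptors were read from the same fit. Of 14 tested, 5 had a positive and 9 a negative fold change, with a median of -0.31. At an unadjusted p under 0.05 1 was higher, where 3.28% of all genes were, and 4 were lower, where 4.32% were. *Cd55*, the ligand of the *Adgre5* product, measured 20.4, 9.64 and 7.03 CPM across F4/80high, against 22.5, 32.9 and 14.1 CPM across F4/80low, lower in 3 of 3 pairs like *Adgre5* itself (log2 fold change -0.92, SE 0.35, edgeR adjusted p = 0.598). The other ligands of that receptor did not share one direction, with *Thy1* at 0.97 (SE 0.49), *Itgav* at 0.41 (SE 0.21), *Itgb1* at 0.34 (SE 0.23), *Itgb3* at -0.51 (SE 0.33) and *Itga5* at -0.0032 (SE 0.31) on the log2 scale. *Tgm2*, a transglutaminase that binds the *Adgrg1* product, measured 366, 336 and 647 CPM across F4/80high, against 735, 636 and 1346 CPM across F4/80low. It was lower in 3 of 3 pairs (log2 fold change -0.997, SE 0.21, edgeR adjusted p = 0.440), with an edgeR adjusted p of 0.0509 under the block. DESeq2 gave adjusted p = 5.06e-04 with batch and 1.44e-04 with the block, with log2 fold changes of -0.995 and -0.993 that stayed inside the limit of 1. The tetraspanins *Cd81* and *Cd9*, which associate with the *Adgrg1* product, went in opposite directions at the unadjusted level, with 0.93 (SE 0.36) and -0.54 (SE 0.24). *Cd81* was higher and *Cd9* lower in 3 of 3 pairs. For *Cd81*, DESeq2 gave adjusted p = 0.267 with batch and 0.00141 with the block, where its log2 fold change of 0.98 stayed inside the limit of 1. The collagen *Col3a1*, a ligand of the *Adgrg1* product, had -0.57 (SE 0.39). Of the latrophilin ligands, *Flrt2* had -0.86 (SE 0.33), *Flrt3* -0.97 (SE 0.45), *Tenm3* -0.11 (SE 0.47) and *Tenm4* 0.66 (SE 0.67).

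Signal transducers downstream of adhesion GPCRs were read in the same way. Of 14 tested, 5 had a positive and 9 a negative fold change, with a median of -0.09. At an unadjusted p under 0.05 0 were lower, where 4.32% of all genes were, and 1 was higher, where 3.28% were. That gene was *Gna12*, a G protein subunit that adhesion GPCRs couple to the RhoA pathway. It measured 90.9, 182 and 67.8 CPM across F4/80high, against 57.1, 85.4 and 23.3 CPM across F4/80low replicates 1, 2 and 3, higher in 3 of 3 pairs (log2 fold change 1.13, SE 0.32, edgeR adjusted p = 0.503). It was called by DESeq2 with the block (adjusted p = 0.00154, percent called higher 0.901) and not in the other fits. *Gna13*, its paralog, had -0.02 (SE 0.22). *Arrb2* at 0.50 (SE 0.23) and *Arrb1* at -0.47 (SE 0.23), the arrestins that bind activated receptors, and *Arhgef1* at -0.56 (SE 0.26), which activates RhoA, each had one sign in 3 of 3 pairs with edgeR p above 0.05. Over 3 of 3 pairs, 4 of the 14 transducers were higher, as 16.0% of all genes were, and 5 were lower, as 15.9% were. *Gnaq*, another G protein subunit, measured 2282 and 2148 CPM in the replicate 3 libraries of F4/80high and F4/80low and 44.7 to 63.4 CPM in the other 4, so the batch difference that *Adgrl1* showed was larger in this transducer.

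Granulocyte and dendritic cell genes moved with *Adgre4*, *Adgre5* and *Adgrg3*. All 11 neutrophil genes had a lower fitted level in F4/80high, 7 at an unadjusted p under 0.05, where 4.32% of all genes were lower. Their sum was 727 to 2033 CPM in F4/80high and 1464 to 4555 CPM in F4/80low. In the fits that called *Adgre4*, neutrophil genes were called lower too, 5 by edgeR with the block, 4 by DESeq2 with batch and 8 by DESeq2 with the block. The most abundant were *Retnlg* and *S100a9*. The granule genes *Ngp* and *Ltf* lay at 61.5 to 552 and 29.7 to 314 CPM and the receptor gene *Csf3r* at 90.8 to 682 CPM, while *Mpo*, *Elane* and *Ly6g* did not exceed 8.89 CPM in any library. All 7 eosinophil genes were lower, 6 at an unadjusted p under 0.05, with a sum of 175 to 523 CPM in F4/80high and 386 to 1498 CPM in F4/80low, mostly from *Alox15* and *Ccr3*, and 4 were called by DESeq2 with batch, 4 with the block and 0 by edgeR with the block. *Siglecf* lay at 19.6 to 175 and *Prg2* at 8.11 to 121 CPM, while *Epx* did not exceed 1.46 CPM. Of 8 dendritic cell genes, 7 were lower, 1 (*Flt3*) at an unadjusted p under 0.05. Called lower were 1 (*Cd209a*) by edgeR with the block, 0 by DESeq2 with batch and 2 (*Cd209a* and *Flt3*) by DESeq2 with the block. The sum of the 8 genes was 75.9 to 316 CPM in F4/80high and 142 to 518 CPM in F4/80low, led by *Ccr7* in batch 1 and *Xcr1* in batch 2. The neutrophil sum in F4/80high was 0.446, 0.291 and 0.497 times that in F4/80low in pairs 1, 2 and 3, the eosinophil sum 0.477, 0.177 and 0.452 times and the dendritic cell sum 0.609, 0.431 and 0.595 times. Pair 2 had the lowest value for each of these sums, for *Adgre4* and for *Adgrg3*, while *Adgre5* was lowest in pair 3. Classical monocyte genes summed to 1738 to 3918 CPM in F4/80high and 1943 to 7295 CPM in F4/80low, with 5 of 6 lower. That sum was 0.793, 1.39 and 0.537 times that of F4/80low in pairs 1, 2 and 3. The gene not lower was *F13a1*, at 2073 CPM in F4/80high replicate 2. Non-classical monocyte genes summed to 984 to 1584 and 1265 to 2211 CPM (0.716, 0.948 and 0.563 times), also with 5 of 6 lower. *Cx3cr1* was higher in 3 of 3 pairs (log2 fold change 1.15, SE 0.36). With the block, edgeR called it, and DESeq2 called it and 2 of the lower genes. The part of these cells in the differences of the 3 receptors was not tested.

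The sums of T and NK cell genes and of B cell genes moved with *Adgrg1*, in cells sorted as Lin-. Of 10 T and NK cell genes, 9 had a higher fitted level in F4/80high, with 1 (*Cd3e*) at an unadjusted p under 0.05, where 3.28% of all genes were higher. Their sum was 1865, 499 and 283 CPM across F4/80high, against 709, 802 and 171 CPM across F4/80low, mostly from *Gzmb* and *Nkg7*. The sum was 2.63, 0.623 and 1.65 times that of F4/80low in pairs 1, 2 and 3, so pairs 1 and 3 were above 1 and pair 2 below, the same order of signs as for *Adgrg1*. The sum of 5 B cell genes, 3 of them higher in the fit, was 9.62 to 130 CPM in F4/80high and 6.62 to 118 CPM in F4/80low, and at 1.75, 0.492 and 1.45 times that of F4/80low it had the same order of signs. Fibroblast genes, led by *Col1a2* and *Dcn*, moved with *Adgrl2* in pair 2, where their sum was 322 CPM for F4/80high, against 778 CPM for F4/80low. All 7 had a lower fitted level in F4/80high, with sums of 322 to 1393 and 778 to 1692 CPM. Of 11 endothelial genes, *Tek* and *Cldn5* did not exceed 0.0252 and 0.177 CPM in any library, and the sum of 35.9 to 126 CPM was mostly *Pecam1*, which leukocytes share, *Flt1* and *Kdr*. *Kdr* was the highest of them in F4/80high replicate 3, at 38.9 CPM, and its log2 fold change of 0.96 (SE 0.40) was opposite in sign to those of *Pecam1*, -0.42, and *Flt1*, -0.60. The part of lymphocytes and fibroblasts in the differences of *Adgrg1* and *Adgrl2* was not tested.

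**Figure D5:**
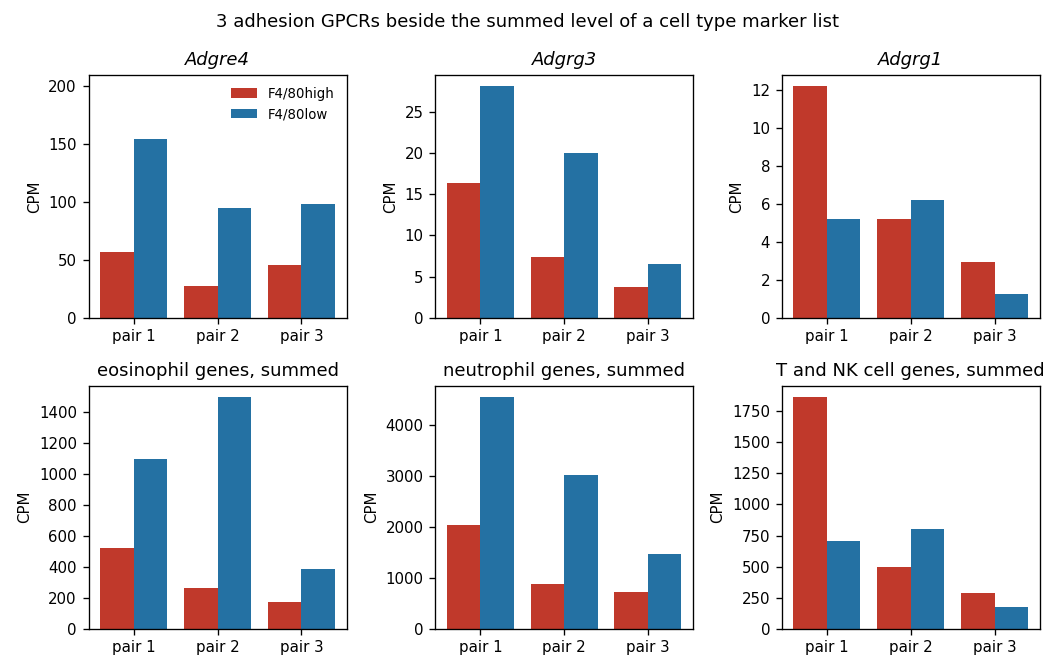
Upper row, CPM of *Adgre4*, *Adgrg3* and *Adgrg1* in each pair, with F4/80high in red and F4/80low in blue. Lower row, the summed CPM of 7 eosinophil, 11 neutrophil and 10 T and NK cell genes in the same libraries, where pair 2 is the one pair in which both *Adgrg1* and the T and NK cell sum are lower in F4/80high.

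The genes whose level followed each receptor most closely were taken as the 3 with the highest Pearson correlation of log2 CPM, with the batch difference removed, among 8814 genes over the 6 libraries. The libraries are few and share depth and batch, so these values are a description. For *Adgre1* these were *Mtss1*, *Tbrg4* and *Dtnbp1* (r from 0.996 to 0.999). For *Adgre4* they were *Ccrn4l*, *Mmp25* and *Cebpb* (r from 0.997 to 0.999), and for *Adgre5* *Csnk1d*, *Gpr141* and *Zyx* (r from 0.996 to 0.997). *Adgrg1* was closest to *Lck*, *Bcl2* and *Abcb9* (r from 0.996 to 0.997), of which *Lck* is a kinase of T cells. *Adgrg3* was closest to *Slc25a38*, *Ogfr* and *Ankrd33b* (r = 0.997 each). *Adgrl1* was closest to *Iscu*, *Rabac1* and *Ccdc55* (r from 0.990 to 0.994), and *Adgrl2* to *BC029214*, *Chst11* and *Sparcl1* (r = 0.998 each), of which *Sparcl1* is a matrix protein of stromal cells.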

How the data were processed

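The authors deposited 1 table per library with the raw read count, length and biotype of each gene. Reads went through the alignment pipeline of the center that sequenced them. The aligner, counting rule, strand and annotation are not given in the sources used here. Counts were fitted in R 4.3.3 with edgeR 4.0.16 and DESeq2 1.42.0. Genes that are protein-coding in GENCODE M21 (GRCm38) with at least 10 counts over the 6 libraries were kept, and library sizes were normalized by TMM. RPKM used the TMM-scaled counts and the deposited length, which equals the merged exon length of M21 for 5 of the 8 receptors. Pairs were compared as log2 CPM with a prior count of 2. The steps were tested on simulated data.

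The supplement's table of sorted cell numbers lists both subsets under each of 3 sample numbers, so same-numbered libraries were taken as pairs of one experiment. The correlation of their deviations from the mean of each subset was 0.745, 0.729 and 0.907 in pairs 1, 2 and 3, values that include the batch difference. Within batch 1, the difference of replicate 1 minus replicate 2 had a correlation of 0.242 between the subsets, the one value without the batch difference. The receptors and gene lists were chosen with earlier results of these data known. Of the 9 genes taken by name, 1 is not reported here. Named were the other 8, family members with a mean of at least 0.1 RPKM in a subset, up to 3 genes with the smallest p per direction of each ligand, partner or transducer list, and the 2 highest or any absent genes of each cell type list. Others (the rest of these lists, *Lck* and *Sparcl1* remarks, and other defining markers) were named after their values were seen. Alternatives were DESeq2, RLE factors, no batch term, library size alone, the replicate block, other count filters and biotypes, and leaving out libraries.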

Additional observations from a re-analysis of the deposited data

How the results depend on the processing

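Of 142 alternative values for the 8 receptors, 137 kept their sign and their side of the thresholds and 3 passed them, all for *Adgre4*. The other 2 were *Adgrl4*, which ran from -2.86 to 1.98 with 1 library left out, was positive at 0.44 without F4/80high replicate 2 and at 1.98 without F4/80low replicate 1, and had no value under the 2 stricter count filters. Over all genes, 0 were called by edgeR with batch, 150 by DESeq2 with batch, 76 by edgeR with the replicate block, 356 by DESeq2 with the replicate block, and 0 to 57 with 1 library left out, with 57 without F4/80high replicate 1. Under each of the first 3 of these alternatives 1 of the 8 receptors and 1 of the 23 family genes was called, *Adgre4* both times, and with 1 library left out 0 were. Its edgeR adjusted p was 0.0690 without F4/80high replicate 1, and over the edgeR alternatives ran from 0.0348 with the replicate block to 1.00. With DESeq2 it was 0.0105 with batch and 1.61e-06 with the replicate block. Of the transducers 1 was called by DESeq2 with the replicate block, and of the ligands and partners 0 in any alternative. Among the receptors, the other family genes, ligands, partners and transducers, edgeR with the replicate block changed no call but that of *Adgre4*. The batch difference of the receptors, added after the values were seen, was called for 3 of 8, for 1 to 3 with 1 library left out and for 6 with library size alone. At the lower depth of replicate 3, *Adgrg1* rests on 27 and 11 counts. The cause was not tested.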
